A study of Mus musculus with 10 samples.

Results

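Zfp genes encode C2H2 zinc finger proteins, and many of them lie side by side in genomic clusters that arose by tandem duplication. The genes described here are the 130 RefSeq protein-coding genes, of 21896 in all, that carry a numbered Zfp symbol and start in 1 of 6 windows of the mouse genome (build GRCm38.p6), with Zfp36 left out. These windows are chromosome 2 at 174 to 178 Mb (8 genes), chromosome 4 at 145 to 148 Mb (16 genes), chromosome 7 at 4 to 13 Mb (23 genes) and at 23 to 30 Mb (31 genes), chromosome 13 at 61 to 68 Mb (29 genes), and chromosome 17 at 20 to 24 Mb (23 genes). The rule uses symbol and position and no measured value, but it was chosen with earlier results of these data known. A peak was counted for a gene where their overlap covered at least 50% of the shorter of both, and only peaks on the strand with more reads from the immunoprecipitation (IP) were kept. By this rule 110 of the 130 genes held a peak, with 199 of the 21195 peaks of the map.

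N6-methyladenosine (m6A) is a methylated form of adenosine in messenger RNA, made by a complex of Mettl3 and Mettl14. Reader proteins that bind the mark shorten the life of many messages or change their translation. Clustered zinc finger proteins mostly join an N-terminal KRAB domain to a tandem array of zinc fingers, and the array with the 3′ untranslated region usually lies in the last exon. The fingers bind DNA, often inside transposable elements, and the KRAB domain recruits Trim28 and the histone methyltransferase Setdb1, which silence the bound chromatin. The clusters on distal chromosomes 2 and 4 are known as recent expansions in the mouse lineage. The genes described here were taken by symbol and window alone. Whether each of them encodes a KRAB domain or arose by tandem duplication was not checked.

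The cells were neural progenitors isolated from the hypothalamus of mouse embryos at E14.5 and kept in culture with FGF2 and EGF at 20 ng/ml each. Every embryo was Mettl14f/f, so controls carried the floxed allele too. Control cells received lenti-EGFP and Mettl14 knockout cells received lenti-EGFP-Cre. The virus medium was replaced after 24 hours, and EGFP-positive cells of both genotypes were sorted after 72 hours. There were 4 IP libraries and 1 input library of each genotype, and the labels do not say whether replicates came from separate embryos or cultures. The peak table had 1 pooled column of input reads and 1 of IP reads and named no genotype or library. Control and knockout could therefore not be compared, and no value had a replicate spread. Every interval below is an exact Clopper-Pearson 95% interval. For a ratio of reads it covers the counting error of reads only. For a share it treats genes or peaks as independent draws, which neighbours that share a row are not. Read numbers and fold changes both come from the authors' deposited table, and the reads in them had a ratio of 2.71 IP to input over all peaks.

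The cell type label was checked against marker genes through their peaks, since reads outside peaks were not analysed here. Of 10 neural progenitor markers 6 held a peak, among them Sox2, Nes, Pax6 and Notch1, and of 6 hypothalamic markers 3 did, Nkx2-1, Six3 and Tbx3. Peaks were also found for 3 of 5 neuronal genes and 3 of 5 genes of the oligodendrocyte lineage, with up to 68971 input reads in Olig1. None of 6 microglial, blood and endothelial markers held a peak. Across all protein-coding genes 44.2% did, and with so few markers a list these counts are a weak check of the label. Vim, Hes5, Fabp7, Msi1, Rax, Otp and Six6 held none either, and a gene without a peak may still have been transcribed.

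Most clustered zinc finger genes carried m6A peaks, and they did so about as often as other zinc finger genes. A peak was found in 84.6% of the 130 genes (interval 77.2 to 90.3), against 44.2% of all protein-coding genes under the same rule. Zfp genes outside the windows stood at 234 of 264 (88.6%, interval 84.2 to 92.2). Other protein-coding genes inside the same windows held a peak in 111 of 475 cases (23.4%, interval 19.6 to 27.4). On chromosome 17 the contrast between neighbours was widest, with 23 of 23 zinc finger genes and 6 of 64 other genes. These shares are descriptions, since which genes the cells transcribed was not known.

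Genes without a peak were gathered in the windows on chromosomes 2 and 4. There 10 of 24 genes held a peak (41.7%), against 100 of 106 (94.3%) on chromosomes 7, 13 and 17. On chromosome 2 the genes with a peak were Zfp967, Zfp970 and Zfp972, and Zfp831, Zfp968, Zfp965, Zfp966 and Zfp973 had none. The window on chromosome 4 held 9 genes without a peak, 4 of them in a row at its proximal end, Zfp990, Zfp980, Zfp987 and Zfp600. Elsewhere the genes without a peak were Zfp524, Zfp428, Zfp575, Zfp640, Zfp457 and Zfp459. A peak of its neighbour Zfp874a reached into Zfp459 with 28.4% of the peak's length, under the 50% limit. At the edges of the windows the 8 Zfp genes that start within 0.2 Mb outside all held a peak. The last gene inside the window at 30 Mb of chromosome 7, Zfp568, had 2.90 as log2 fold change in the authors' deposited table, and the next gene outside, Zfp14, had 4.07.

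**Figure D1:**
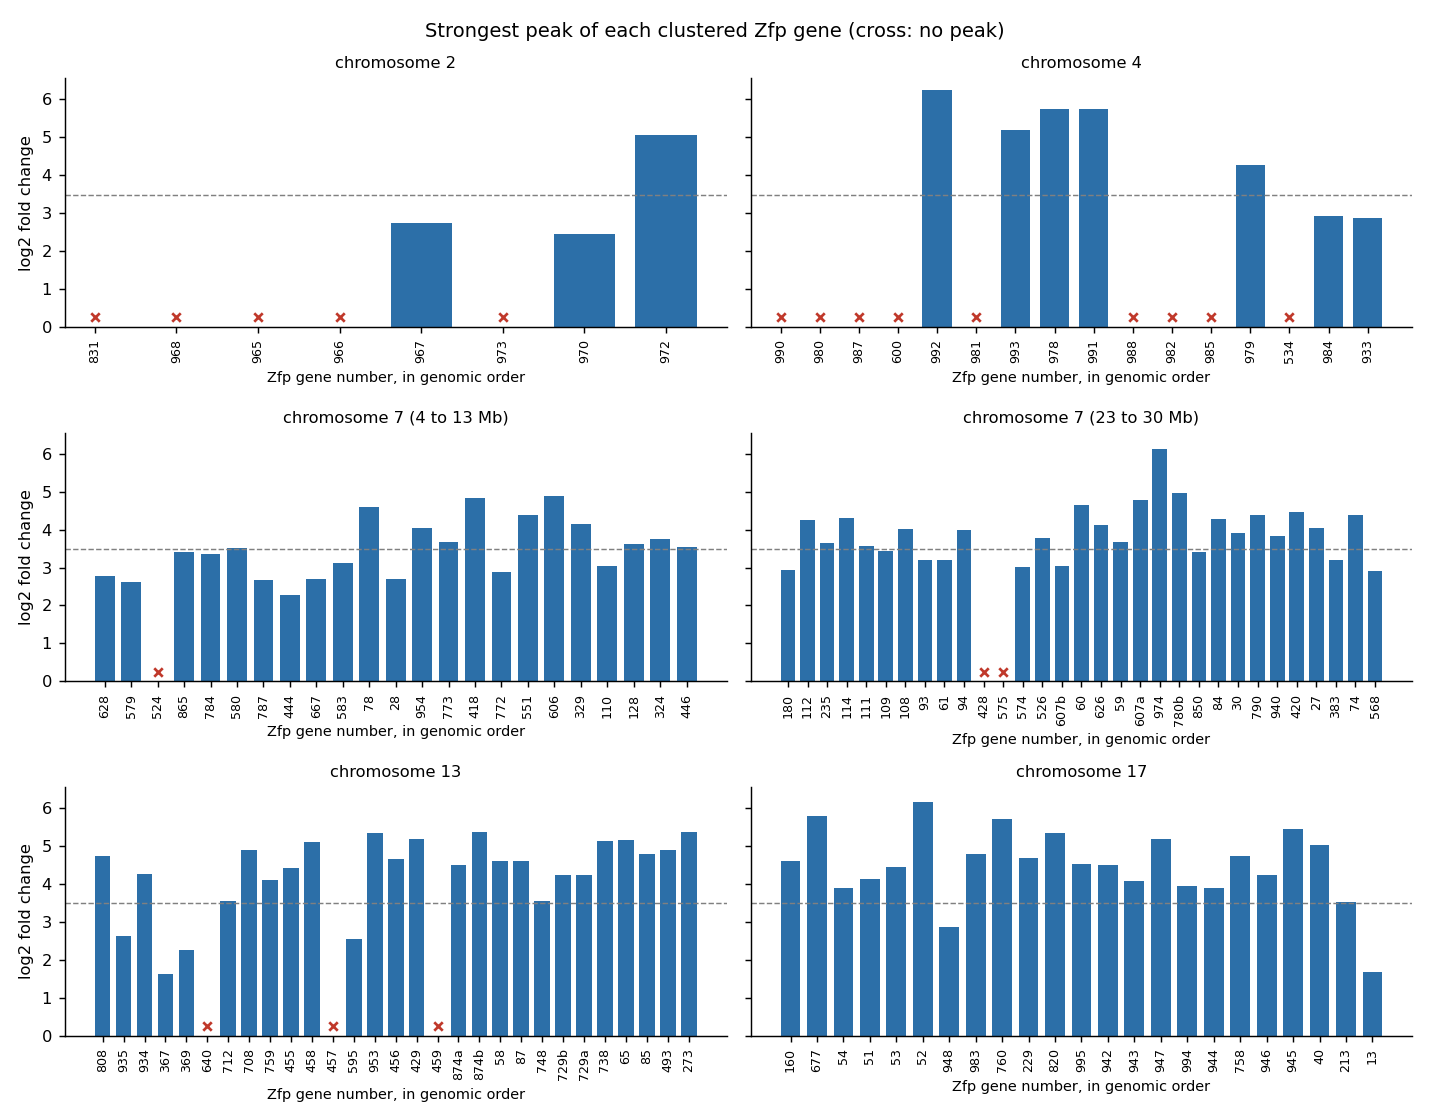
Strongest peak of each clustered zinc finger gene, in genomic order within the 6 windows. Bars give the log2 fold change of IP over input from the authors' deposited table, crosses mark the genes without a peak, and the dashed line is the median of other protein-coding genes with a peak (3.49). Crosses stand for 14 of the 24 genes on chromosomes 2 and 4 and for 6 of the 106 genes in the other windows.

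Genes in the windows on chromosomes 2 and 4 had close copies of each other's promoters. RefSeq promoter windows of build GRCm38.p6 (300 bases, from 250 before to 50 after the start) were listed for 111 of the 130 genes. For each gene the most similar window of another clustered gene was found by global alignment. Of 16 listed genes without a peak, 11 had a copy of at least 80% identity, and of 95 with a peak, 9 did. This went in part with the windows: 14 of 19 listed genes on chromosomes 2 and 4 had such a copy, and 6 of the other 92. Within chromosomes 2 and 4, 11 of 12 listed genes without a peak had a copy, and 3 of 7 with a peak did. On chromosomes 7, 13 and 17 it was 0 of 4 without a peak and 6 of 88 with one. Identity of promoters is not identity of transcripts, and the sources used here do not say how reads that match several copies were placed. The part of such reads in the missing peaks was not tested.

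The closest pair on chromosome 2 shows a gene with a peak and a gene without one behind the same promoter letters. Zfp966 held no peak. Its window (chr2:175931051-175931350, minus strand) and that of Zfp967 (chr2:176520754-176521053, plus strand) had 0 differences over 300 bases. Zfp967 held a single weak peak of 97 input and 142 IP reads. Both are printed 5′ to 3′ in lower case, with no capitals because no base differs.

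Zfp966: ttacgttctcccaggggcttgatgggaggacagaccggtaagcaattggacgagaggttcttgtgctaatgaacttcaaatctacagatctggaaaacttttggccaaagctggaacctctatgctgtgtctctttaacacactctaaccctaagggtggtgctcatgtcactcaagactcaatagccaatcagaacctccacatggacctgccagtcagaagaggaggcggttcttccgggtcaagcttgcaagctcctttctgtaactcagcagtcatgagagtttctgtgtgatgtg
Zfp967: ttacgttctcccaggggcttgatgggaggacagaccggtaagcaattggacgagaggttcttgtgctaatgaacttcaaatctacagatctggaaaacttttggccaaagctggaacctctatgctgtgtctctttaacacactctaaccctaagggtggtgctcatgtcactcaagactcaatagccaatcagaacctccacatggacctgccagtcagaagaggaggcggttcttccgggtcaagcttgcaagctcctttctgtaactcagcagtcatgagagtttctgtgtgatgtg

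The pair on chromosome 4 shows a similar copy with differences. Zfp600 held no peak, and Zfp979 held 2. The window of Zfp600 (chr4:146156577-146156876, plus strand) and that of Zfp979 (chr4:147642459-147642758, minus strand) differed by 16 substituted, inserted or deleted bases, an identity of 94.7%. Capitals mark the bases that differ or have no partner in the other window.

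Zfp600: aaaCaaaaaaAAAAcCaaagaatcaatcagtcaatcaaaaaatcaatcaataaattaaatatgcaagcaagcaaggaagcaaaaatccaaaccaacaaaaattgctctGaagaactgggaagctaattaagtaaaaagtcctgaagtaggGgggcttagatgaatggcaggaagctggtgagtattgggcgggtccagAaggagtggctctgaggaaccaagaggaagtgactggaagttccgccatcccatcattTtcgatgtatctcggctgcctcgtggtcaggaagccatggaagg
Zfp979: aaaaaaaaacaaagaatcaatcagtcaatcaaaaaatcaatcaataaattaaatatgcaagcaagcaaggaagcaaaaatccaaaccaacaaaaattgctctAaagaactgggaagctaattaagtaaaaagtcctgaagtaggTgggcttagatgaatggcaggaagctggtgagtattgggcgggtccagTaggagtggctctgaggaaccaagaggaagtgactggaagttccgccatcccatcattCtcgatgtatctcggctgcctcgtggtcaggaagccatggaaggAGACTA

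In these 4 windows the dinucleotide CG, which reads the same on both strands, occurred 5 times each. CG dinucleotides are rare in most of the mouse genome and frequent in CpG islands, which many broadly active genes have at their start. For a clustered gene with several listed windows the highest count was taken. The median count was 5 in the 16 listed clustered genes without a peak (range 3 to 19) and 10 in the 95 with a peak (range 1 to 36). This difference also followed the windows. On chromosomes 2 and 4 the median was 5 both with and without a peak (7 and 12 genes), and on chromosomes 7, 13 and 17 it was 11 with a peak (88 genes) and 8.5 without (4 genes). Zfp genes outside the windows had medians of 17 and 13.5, and other protein-coding genes 23 with a peak and 5 without. At least 1 CG was present in all 120 promoter windows of clustered genes and in 94.6% of all 32851 promoter windows of the table.

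**Figure D2:**
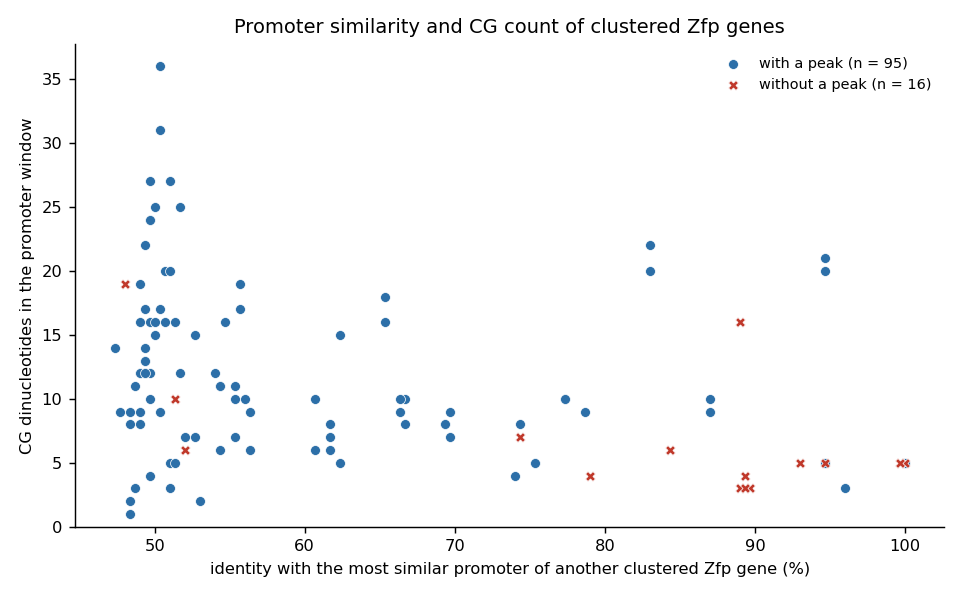
Promoter windows of the 111 clustered zinc finger genes in the RefSeq table. The x axis gives the identity in percent with the most similar promoter of another clustered gene. The y axis gives the highest number of CG dinucleotides in 300 bases among the gene's windows, so both values can come from different windows. Circles are genes with a peak (95) and crosses genes without one (16). Of the crosses, 11 lie at 80% identity or more, and 9 of the circles do.

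Where clustered genes held a peak, its median strength was above that of other genes and close to that of other zinc finger genes. The strength of a gene is given by its peak with the highest log2 fold change. Its median, from the authors' deposited table, was 4.14 (17.6-fold) over 110 clustered genes, 4.08 over 234 Zfp genes outside the windows and 3.49 (11.2-fold) over 9327 other protein-coding genes. Across genes the SD was 0.99 in the clustered set and 0.96 in the others, larger than the difference of 0.65 between their medians. Of the 110 genes 80 (72.7%) lay above 3.49, against 50.8% of all genes with a peak, and 169 of 234 Zfp genes outside the windows did (72.2%). A larger share of the clustered set lay at the upper end. Above 5 on the log2 scale in the authors' deposited table were 20 genes (18.2%), against 4.36% of all genes with a peak and 17 of 234 Zfp genes outside (7.26%). The highest value was 6.24 in clustered genes, 6.05 in Zfp genes outside and 9.37 in other genes. Of the 20 genes, 10 had under 100 input reads in that peak, and Zfp978 and Zfp991 share a row. Without genes whose row also met the rule for another gene, 14 of 92 exceeded 5. The limit of 5 was chosen after the values had been seen, and the difference between both zinc finger sets was not tested. Every strongest peak of the 110 genes had an adjusted p under 0.05 in the authors' deposited table, and so did their other peaks. The rows had already been called as peaks, so this does not set the clustered genes apart. Among strongest peaks of other genes the largest adjusted p of the authors' unnamed test was 0.079.

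The ratio of reads also placed both zinc finger sets above other genes, with a smaller gap. The median ratio of IP to input reads in the strongest peak was 4.05 in clustered genes, 4.30 in Zfp genes outside the windows and 3.08 in other genes. On the log2 scale with a pseudocount of 0.5 the medians were 2.02 in clustered genes and 1.62 in other genes. The authors' log2 fold change therefore exceeded the read ratio by more in clustered genes (median 2.36) than in other genes (median 1.90), and its normalization is unknown here. A range printed after a ratio is its interval. For 105 of the 110 genes the lower limit of the read ratio was above 1, a count that was not made for other genes. Most other genes had more IP than input reads too. The strongest peak had fewer IP than input reads in 3 of 110 clustered genes and in 595 of 9327 other genes. Over all peaks the ratio was 2.71. The read ratio is not corrected for depth.

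Strength differed between windows. The median log2 fold change in the authors' deposited table was 4.61 on chromosome 13 (26 genes with a peak), 4.54 on chromosome 17 (23 genes), 3.92 on chromosome 7 at 23 to 30 Mb (29 genes) and 3.47 on chromosome 7 at 4 to 13 Mb (22 genes), the last close to the 3.49 of other genes. Chromosome 4 had the highest median, 5.19, on 7 genes that ranged from 2.87 to 6.24 in the authors' deposited table. Chromosome 2 had the lowest, 2.73, on 3 genes. Of the 20 genes above 5, chromosomes 13 and 17 held 7 each, chromosome 4 held 4, and chromosome 2 and the distal window of chromosome 7 held 1 each. The spread within a window (SD 0.72 to 1.43 across genes) was of the size of these differences, and with 1 pooled map the order of the windows has no replicate check.

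**Figure D3:**
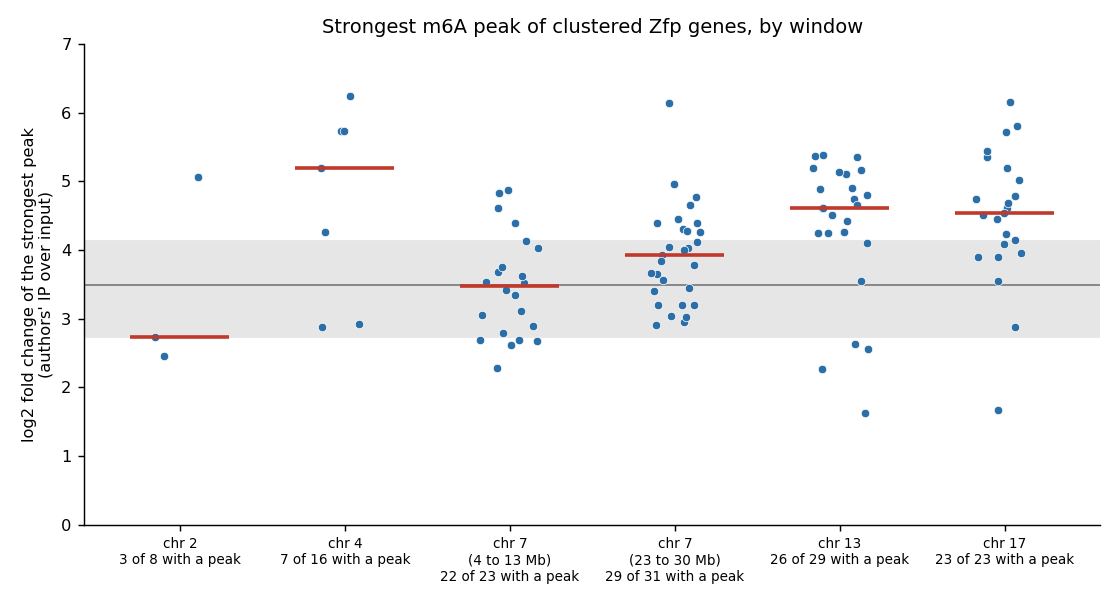
Strongest peak of 110 clustered zinc finger genes by window. Each point is a gene, the y axis is the log2 fold change of IP over input from the authors' deposited table, red bars are window medians, and the grey line and band are the median (3.49) and the middle 50% of other protein-coding genes (2.74 to 4.12). The medians of chromosomes 4, 13 and 17 lie above the band, that of chromosome 2 at its lower edge.

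Among clustered genes the strongest peak lay in Zfp992 on chromosome 4. It held 21 input reads and 212 IP reads at 146466843 to 146467142 on the plus strand (ratio 10.1, 6.44 to 16.6) and reached 6.24 on the log2 fold scale of the authors' deposited table. Its 2 other peaks lay on either side of it, with 11 input reads and 55 IP reads and with 664 input reads and 1350 IP reads, at 5.19 and 3.999 in the authors' deposited table. A pseudogene, Vmn2r-ps16, spans the same interval in RefSeq. Further along chromosome 4, Zfp978 and Zfp991 overlap in the annotation and share a single row of the table. This row held 1496 input reads and 10133 IP reads at 147179263 to 147180412 (ratio 6.77, 6.41 to 7.16) and reached 5.74 on the log2 fold scale of the authors' deposited table. It lay near the 3′ end of Zfp991 and inside the 5′ part of Zfp978, whose RefSeq span is longer. Zfp993 held 19 input reads and 98 IP reads and 5.19 in the authors' deposited table. This peak of 350 bases lay inside a RefSeq span of 478623 bases, and its row also met the overlap rule for the pseudogene LOC115486238. The remaining genes of this window were Zfp979 at 4.27, Zfp984 at 2.92 and Zfp933 at 2.87 in the authors' deposited table.

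On chromosome 17 every gene held a peak, and 21 of 23 lay above the median of other genes. Zfp52 led, with 52 input reads and 519 IP reads (ratio 9.98, 7.496 to 13.5) and reached 6.15 on the log2 fold scale of the authors' deposited table. Zfp677 followed with 15 input reads and 128 IP reads (8.53, interval 4.98 to 15.7), then Zfp760 with 24 and 195 (8.12, interval 5.30 to 12.99), at 5.81 and 5.71 in the authors' deposited table. These 3 intervals overlap, so their order is not resolved by the reads. Zfp677 also held a peak with more reads, 873 input and 2558 IP, but only 4.48 in the authors' deposited table. Zfp945, with 187 input reads and 1122 IP reads, stood at 5.45, and Zfp13 was lowest at 1.68 in the authors' deposited table. The Zfp13 peak held 740 input reads and 881 IP reads (ratio 1.19, 1.08 to 1.31).

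On chromosome 13 the highest values came from Zfp273 and Zfp874b. Zfp273 held 374 input reads and 2586 IP reads (ratio 6.91, 6.20 to 7.73), and Zfp874b had 29 and 220 (ratio 7.59, 5.14 to 11.6). Their log2 fold changes in the authors' deposited table were 5.39 and 5.37. Zfp458 held 4 peaks, and its strongest, with 5453 input reads and 26804 IP reads, reached 5.11 in the authors' deposited table. The 3 other peaks of Zfp458 had 12, 156 and 62 input reads. Zfp367 was lowest in this window and in the whole set, at 1.63 in the authors' deposited table, with 326 input reads and 222 IP reads and a ratio under 1 (0.681, interval 0.572 to 0.810). Zfp595 was the other gene here with fewer IP than input reads, 2151 and 2300, and its value was 2.56 in the authors' deposited table. Zfp58 shares its strongest row with Zfp87, and Zfp729a shares one with Zfp729b. These rows span 26988 and 41121 bases across several genes and carry 3 gene identifiers each.

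Zfp607a in the distal window of chromosome 7 held 40.5% of all IP reads in peaks of clustered genes. Its share of the input reads in these peaks was larger still, 116583 of 245902. Its strongest peak, 100 bases at 27877855 to 27877954, held 13455 input reads and 72052 IP reads (ratio 5.36, 5.26 to 5.45) and reached 4.77 on the log2 fold scale of the authors' deposited table. The next peak, 2375 bases at 27878105 to 27880479, held 103128 input reads and 214066 IP reads and 3.15 in the authors' deposited table. Both lay in the middle part of the RefSeq span of the gene, which runs from 27860494 to 27903063, and not at its 3′ end. The peaks of clustered genes held 0.976% of all IP reads in peaks, and 0.580% without Zfp607a. Its near namesake Zfp607b held 220 input reads and 269 IP reads in its strongest peak.

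Elsewhere on chromosome 7 strong and weak genes stood side by side. Zfp974 had the highest fold change in the distal window, 6.14 in the authors' deposited table, from 7 input reads and 82 IP reads (ratio 11.7, with wide limits of 5.44 and 30.0). Its 3 other peaks had 40, 353 and 152 input reads, at 3.45, 4.52 and 3.03 in the authors' deposited table. Zfp780b, beside it, held 4 peaks between 2.41 and 4.97 in the authors' deposited table. Zfp30 and Zfp235 held the most peaks, 5 each, and none of them exceeded 3.92 and 3.65 in the authors' deposited table. Zfp60 held 3378 input reads and 17812 IP reads (ratio 5.27, interval 5.08 to 5.47), and Zfp109 had 6100 and 20202 (ratio 3.31, interval 3.22 to 3.41). Zfp568, a KRAB repressor of a placental Igf2 promoter, was lowest in this window at 2.90 in the authors' deposited table, with 1650 input reads and 3635 IP reads (ratio 2.20, interval 2.08 to 2.34).

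In the proximal window of chromosome 7 Zfp606 was highest and Zfp444 lowest. Zfp606 held 1780 input reads and 8238 IP reads (ratio 4.63, interval 4.396 to 4.87), and Zfp444 had 261 and 534 (ratio 2.05, interval 1.76 to 2.38). The authors' deposited table gave them 4.88 and 2.28. Zfp954 had the most IP reads in this window, 36407 against 7276 input reads (ratio 5.004, interval 4.88 to 5.13), and 4.03 in the authors' deposited table. Zfp110 lies here and Zfp369 on chromosome 13, and both encode factors that bind the neurotrophin receptor p75 and can take part in neuronal cell death. Both peaks of each gene lay below the median of other genes. Zfp110 held 5780 input reads and 6369 IP reads in its strongest peak (ratio 1.10, interval 1.06 to 1.142), and Zfp369 had 141 and 191 (ratio 1.35, interval 1.08 to 1.70), with 3.05 for Zfp110 and 2.27 for Zfp369 in the authors' deposited table.

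On chromosome 2 the strongest of the 3 peaks was that of Zfp972, with 30 input reads and 165 IP reads (ratio 5.50, interval 3.71 to 8.41) and 5.06 in the authors' deposited table. This peak spanned 16474 bases, and the transcribed pseudogene Gm14327 overlaps it. Zfp970 had fewer IP than input reads, 357 and 439 (ratio 0.813, interval 0.705 to 0.937), and 2.45 in the authors' deposited table. Zfp967 stood at 2.73 in the authors' deposited table.

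Many of the strongest peaks of clustered genes rested on few input reads. The median was 388.5 input reads in clustered genes, 587.5 in Zfp genes outside the windows and 678 in other genes. Under 100 input reads stood behind 31 of 110 clustered genes (28.2%) and 17.05% of other genes, and behind 10 of the 20 clustered genes above a log2 fold change of 5. In other genes too the median strength was highest below 10 input reads, so genes were compared within ranges of input reads. With 10 to 99 input reads the median log2 fold change in the authors' deposited table was 4.45 in 29 clustered genes and 3.75 in 1422 others, from 100 to below 1000 it was 4.07 in 56 and 3.28 in 4081, and with 1000 or more it was 4.14 in 23 and 3.53 in 3656. The difference was thus between 0.60 and 0.79 in these 3 ranges. Below 10 input reads only Zfp974 and Zfp850 remained, and no difference was seen (4.77 against 4.75 in the authors' deposited table). No peak of a clustered gene had 0 input reads.

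**Figure D4:**
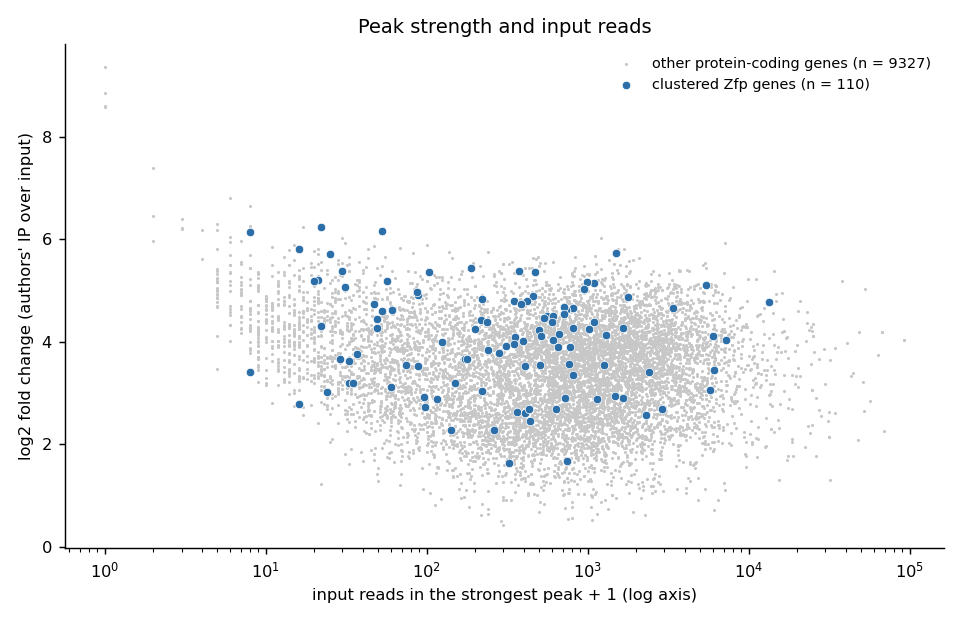
Peak strength against input reads for 110 clustered zinc finger genes (blue) and 9327 other protein-coding genes (grey). The x axis is the number of input reads in the strongest peak plus 1 on a log scale, the y axis the log2 fold change from the authors' deposited table, and each point is a gene. Clustered genes range from 7 to 13455 input reads.

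Peaks of clustered genes lay toward the 3′ end of the gene but less often at its very end. Each gene span was divided into 10 equal bins, and 199 of 202 pairs of a clustered gene and a peak had the peak's midpoint inside the span. The last bin held 51 of these (25.6%, interval 19.7 to 32.3), against 36.9% of the peaks of all protein-coding genes. The bin before it held 58 (29.1%, interval 22.9 to 36.0), against 12.4% in other genes and 17.1% in Zfp genes outside the windows. Both bins together held 54.8% in clustered and 49.7% in other genes. At the 5′ end the first bin held 3.02% of the peaks of clustered genes (interval 1.11 to 6.45) and 9.51% of those of other genes.

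This shift depends on the point of the peak that is placed. By the 3′ end of the peak in place of its midpoint, the last bin held 50.3% of the peaks of clustered genes (interval 43.1 to 57.4) and 46.4% of those of other genes, so the direction of the difference turned. Strongest peaks were wider in clustered genes (median 1730 bases) than in other genes (1172), and wider still in Zfp genes outside the windows (1902.5), whose last bin held 28.5% of midpoints. Widths include introns, since every peak is written as a single block. Exons were not used here, so it was not measured whether a peak lay over the zinc finger array, the stop codon or the untranslated region. Among the 4 windows on chromosomes 7, 13 and 17 the share of the last bin ran from 7 of 41 peaks on chromosome 13 (17.1%, interval 7.15 to 32.1) to 16 of 40 on chromosome 17 (40%, interval 24.9 to 56.7). It was 5 of 10 on chromosome 4 (50%, interval 18.7 to 81.3) and 1 of 3 on chromosome 2. Among strongest peaks alone the last bin held 23.4% in clustered and 41.4% in other genes.

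**Figure D5:**
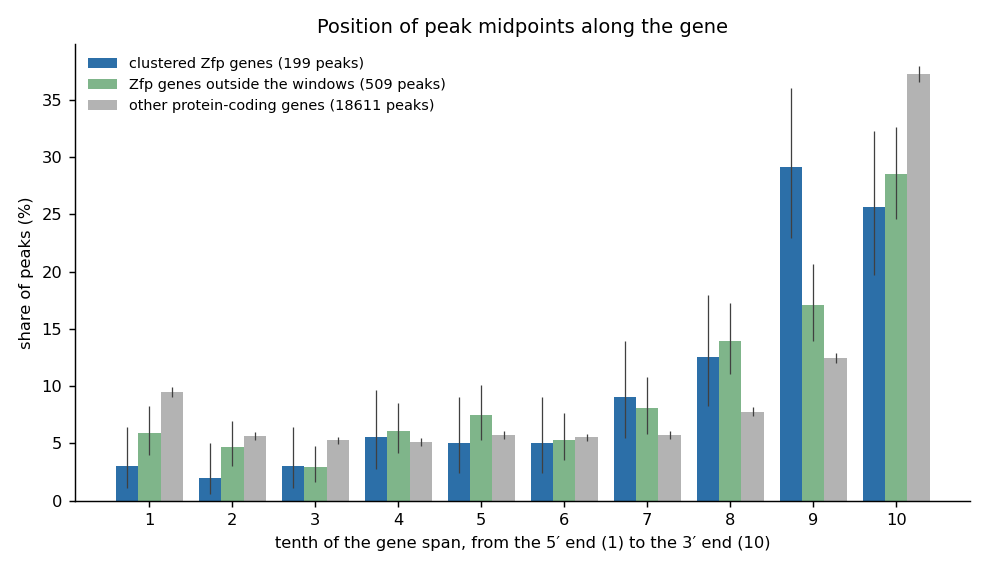
Position of peak midpoints along the gene. The x axis is the bin of the gene span from the 5′ end (1) to the 3′ end (10), and the y axis the share of peaks in percent. Colours are the 3 gene sets, and error bars are exact 95% intervals that treat peaks as independent draws. Clustered genes have 29.1% in bin 9 and 25.6% in bin 10, other protein-coding genes 12.4% and 37.3%.

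Rows shared between neighbours and strands limit how far single genes can be told apart. The strongest peaks of the 110 genes came from 107 rows, since Zfp978 with Zfp991, Zfp58 with Zfp87 and Zfp729a with Zfp729b share a row each. For 18 genes the strongest row also met the overlap rule for another RefSeq gene of any type. Without them 92 genes remained, with a median of 4.04, 63 above 3.49 and 14 above 5 in the authors' deposited table. Of the 95 genes with a peak and a RefSeq promoter entry, 91 had their peaks on the strand of that entry. The other 4, Zfp456, Zfp943, Zfp784 and Zfp580, had them on the opposite strand, where the rule had taken the side with more IP reads. On their own strand the strongest peaks of Zfp456, Zfp943 and Zfp784 had 4.42, 3.92 and 3.60 in the authors' deposited table, and Zfp580 had none there. Near the overlap limit, the row of Zfp87 covered 50.8% of the gene. A row with 41 input reads and 126 IP reads lay inside Zfp52 with 38.0% of its length and was not counted. It met the limit for Zfp53 at 52.7% but was left out there too, since it lies on the strand with fewer IP reads.

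The proteins through which KRAB zinc finger proteins silence chromatin carried peaks in 12 of 20 genes, against 44.2% of all protein-coding genes. Trim28, the direct partner of the KRAB domain, held none. Setdb1 held 1936 input reads and 6036 IP reads in its strongest peak (ratio 3.12, interval 2.96 to 3.28), and its cofactor Atf7ip had 1506 and 4838 (ratio 3.21, interval 3.03 to 3.41), and the authors' deposited table gave 3.87 for Setdb1 and 4.06 for Atf7ip. In the HUSH complex, which silences repeats through Setdb1 and Morc2a, Tasor had 4.81 and Mphosph8 3.995, and Pphln1 held no peak in the authors' deposited table. Morc2a had 4.29 and Morc3 3.89 in the authors' deposited table. Among the HP1 proteins, which bind methylated histone H3, Cbx1 had 4.62 and Cbx5 2.07 in the authors' deposited table, and Cbx3 held no peak. The median of the 12 was 4.03 in the authors' deposited table, and 9 of them lay above 3.49, against 50.8% of all genes with a peak. Hdac2 had 5.29 on 20 input reads, Smarcad1 4.61, Chd4 2.96 and Dnmt3a 2.00 in the authors' deposited table. Chd3, Hdac1, Dnmt1, Dnmt3b and Uhrf1 held no peak.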

How the data were processed

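The samples were control and Mettl14 knockout neural progenitor cells, grouped by the titles in the labels. Per the submitters' processing notes, bcl2fastq 2.17.1.14, Trimmomatic 0.32 and STAR 2.5.2a and the builds GRCm38.p6 and GRCh38.p13 were used. For the peak caller and the libraries behind the peaks, the sources used here give no name. The deposited counts are whole reads per peak, in 1 pooled input column and 1 pooled IP column, per the file headers. The authors deposited a log2 fold change per peak, taken as IP over input, with p-values and adjusted p-values of an unnamed test. The deposited score is minus log2 of the adjusted p-value and was not used further. The peak list held the same intervals, strands and scores.

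Peaks were assigned to RefSeq genes of GRCm38.p6 by position with Python 3.11.15, pandas 2.3.3 and numpy 2.4.6, since the gene identifiers of the table are not in the RefSeq table. The assignment was tested only on short simulated peaks in genes that overlap no other gene, so the test does not cover wide or shared rows. Intervals came from SciPy 1.17.1 and alignments from edlib 1.3.9.post1. Named genes were the 10 strongest, the 5 with the most IP reads, the 5 with the most peaks, the highest and lowest of each window, and Zfp110, Zfp369 and Zfp568; other genes were named after their values were seen. Protein identity was planned for naming pairs and was not computed, and promoter identity was used in its place. Members, lists and this rule were chosen with earlier results of these data known. No test between gene sets was made.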

Additional observations from a re-analysis of the deposited data

Results flagged for a closer look

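Peaks on the strand opposite to the one used lay outside the comparisons. For 11 of the clustered genes the table held peaks on both strands, and 18 rows on the strand with fewer IP reads were left out. These rows had between 35 and 3404 IP reads (median 531), above the 3 reads that a count of 0 allows. Their log2 fold changes in the authors' deposited table ran from 2.31 to 5.80, with a median of 4.01. In Zfp456, Zfp943 and Zfp784 the rows left out were those on the gene's own strand in RefSeq.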

How the results depend on the processing

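No paired analysis was possible because the pooled columns of the peak table carry no replicate number. The share of clustered genes with a peak was 75.4% without rows that carry several gene identifiers and 67.7% with peaks above the median fold change of all peaks. Without the window on chromosome 4, an alternative added after seeing the data, it was 90.4%, and under the other 10 alternatives it lay between 81.3% and 87.7%. The median strength on the log2 scale was 3.72 as a mean over a gene's peaks and 3.997 to 4.27 otherwise. Its difference from other genes was 0.020 below 10 input reads, where it rests on 2 genes, and 0.52 to 0.79 under the other 17 alternatives. The share of peaks in the last bin became 54.8% with the last 2 bins and 50.3% by the 3′ end of the peak, which follows from those definitions, and was 22.01% to 28.7% otherwise. Median input reads were 592 in the peak with the most IP reads and 350.5 to 405 otherwise. The strand of the promoter table and each window left out in turn were also added after seeing the data. Fold changes on under 100 input reads are the least precise.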

Other observations

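Some neighbouring clustered genes differed widely in strength, while others lay close together, such as Zfp738 at 5.14 and Zfp65 at 5.16 in the authors' deposited table. These examples were picked after the values had been seen, and differences between neighbours were not compared with those between other genes. Zfp948 stood at 2.88 in the authors' deposited table between Zfp52 at 6.15 and Zfp983 at 4.79, its neighbours on chromosome 17. On chromosome 13, Zfp595 at 2.56 lay beside Zfp953 at 5.35 in the authors' deposited table. The spans of Zfp595 and Zfp953 overlap in RefSeq, and their rows carry 4 and 3 gene identifiers. The Zfp953 peak also reached into Zfp595 with 29.8% of the peak's length, under the overlap limit. The contrast between Zfp595 and Zfp953 therefore depends on that limit. Zfp820 held 467 input reads and 2460 IP reads in a strongest peak of 450 bases near its 3′ end, with 5.36 in the authors' deposited table. Zfp574, Zfp59 and Zfp667 held 4 peaks each, none of them above 3.67 in the authors' deposited table.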
